A study of Salmo salar with 12 samples.

Results

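Chromatin accessibility in the liver of female Atlantic salmon was compared between T3 and the sampling before it, T2. Both samplings lay within a long-light regime that brings fish into sexual maturation, and they were 2 weeks apart. The comparison used the 3 T2 and the 3 T3 libraries among 12 in the series, and peaks above 1 CPM (the count of a peak after scaling every library to an equal total) in at least 2 of these 6 libraries. This kept 92741 of 94780 peaks, and the other 2039 were too low to be tested. The fish were brood stock about 3 years after fertilization, from a single management group kept under the same light. No fish stayed on short days, so time under long light, age and season cannot be told apart. T1, taken just before the light was extended, and T4, 2 weeks after T3, share no library with the comparison and are used below as separate libraries. Each library is labelled as a biological replicate of its own. Fish were killed when sampled, so no fish was sampled at more than 1 time point.

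ATAC-seq exposes nuclei to the Tn5 transposase, which cuts and tags DNA where nucleosomes leave it open. Reads therefore pile up into peaks over promoters, enhancers and other regions bound by regulatory proteins, and the count of reads in a peak is its accessibility. The liver of an egg-laying female takes on a new task in maturation. Under estradiol from the ovary, hepatocytes make vitellogenin and egg envelope proteins and shift lipid metabolism to supply the growing oocytes. Peaks are given by number alone in the tables used here, so no gene, position or sequence is attached to a peak below, and the labelled tissue was not checked against marker genes. In whole liver, a lower share of cells with an open region and a region less open in every cell cannot be told apart.

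The T2 libraries held between 17139509 and 22714461 counts in peaks, with a median count per peak of 84 to 109. The T3 libraries held 23759764, 13102712 and 7476523, with a median count of 109, 66 and 45. The T3 library of replicate 3 was the shallowest of the 6 and stood apart from them. Only 37.7% of its counts fell in the 10% of peaks with the highest CPM in the T1 and T4 libraries, against 42.5% to 44.1% in the other 5 libraries. This share was 43.5% ± 0.524 at T2 and 41.4% ± 3.30 at T3 (SD, n = 3 each), and the groups overlapped (two-sided exact permutation test, p = 0.4, where the smallest p that 3 against 3 libraries can give is 0.1).

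No peak passed the test between the 2 samplings. A differentially accessible region (DAR) was a peak with an adjusted p under 0.05 and a log2 fold change (log2FC) beyond 1 in either direction, from the quasi-likelihood test of edgeR, adjusted over all tested peaks by the Benjamini-Hochberg method. By this rule 0 of 92741 peaks (0%) were DARs, and the smallest adjusted p was 0.298. The unadjusted p was under 0.05 for 5734 peaks, or 6.18%, where 5% of the tested peaks would be 4637. With TMM scaling, 3014 of them had higher (3.25%) and 2720 lower accessibility at T3 (2.93%), so that 52.6% were higher. This split depended on the scaling. It was 65.5% higher without TMM and 10.8% higher with the uniquely mapped reads of each library as its size. At an unadjusted p under 0.01 there were 999 peaks, where 1% would be 927, and at p under 0.001 there were 99, where 0.1% would be 92.7. The count of DARs rested on the tool. DESeq2 called 87 peaks (0.0938% of 92712), edgeR's exact test called 65 (0.0701%), and limma's voom with quality weights called 0, with 7782 peaks at an unadjusted p under 0.05. Without T3 replicate 3 the quasi-likelihood test called 2 peaks, and 7016 had an unadjusted p under 0.05.

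TMM scaling centres the estimates near 0, so they show how peaks differed relative to each other, not an overall shift. The median log2FC from T2 to T3 was 0.0047, and the median size of the log2FC in either direction was 0.24, a 1.18-fold difference. With mapped reads as library sizes these medians were −0.33 and 0.381. The central 50% of the peaks had a log2FC between −0.22 and 0.27, and 90% lay between −0.65 and 0.83. Estimates beyond 2-fold were found for 2839 peaks in the direction of higher and 1231 in that of lower accessibility at T3, together 4.39%. Estimates beyond 4-fold were found for 202 peaks. The spread of these estimates holds the sampling error of 3 libraries against 3 as well as any real change.

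Bounds on the change were read from the 95% interval of each log2FC, computed peak by peak from the standard error of the test and not widened for the number of peaks. The median standard error was 0.32 and the interval reached a median of 0.72 to either side, both on the log2 scale. The interval lay wholly within 2-fold in either direction for 46395 peaks (50%), so a change of 2-fold or more lay outside the 95% interval of these peaks. This count holds relative to TMM scaling, and with mapped reads as library sizes it was 547. It lay within 4-fold for 85986 peaks (92.7%) and within 1.5-fold for 10379 (11.2%). In the middle peak of the ranking, the outermost bound was 2.00-fold, and in 90% of peaks it did not pass 3.61-fold. At the other end, the interval lay wholly beyond 2-fold for 70 peaks, 53 of them higher and 17 lower at T3. The same estimates set what could have been called alone. In the quasi-likelihood test, a peak passing alone among so many needed a log2FC of 3.53 (11.6-fold) at the median standard error. The most precise 10% of peaks needed at most 4.62-fold. For the other 90% an estimate under 4.62-fold could not have passed this test alone. Peaks that pass together under the Benjamini-Hochberg method can do so with smaller estimates. DESeq2 and edgeR's exact test called smaller differences in the same libraries, such as the 3.00-fold lower peak83105 (adjusted p = 0.00325 and 0.00511).

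How tightly a peak was bounded followed its level. Peaks were divided into 10 bins of like size by their mean CPM in the T1 and T4 libraries, which the comparison does not use. In the lowest bin, with a median of 1.68 CPM, 2.54% of peaks had an interval within 2-fold. In the highest bin, with a median of 37.3 CPM, 93.3% did, and 39.5% were bounded within 1.5-fold. The median size of the log2FC and the median reach of the interval to either side were 0.42 and 1.18 in the lowest bin and 0.16 and 0.45 in the highest. The most accessible bin of liver peaks thus held no estimate beyond a log2FC of 2.21, and 0.561% of its peaks had an estimate beyond 2-fold, against 13.5% of the lowest bin.

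**Figure D1:**
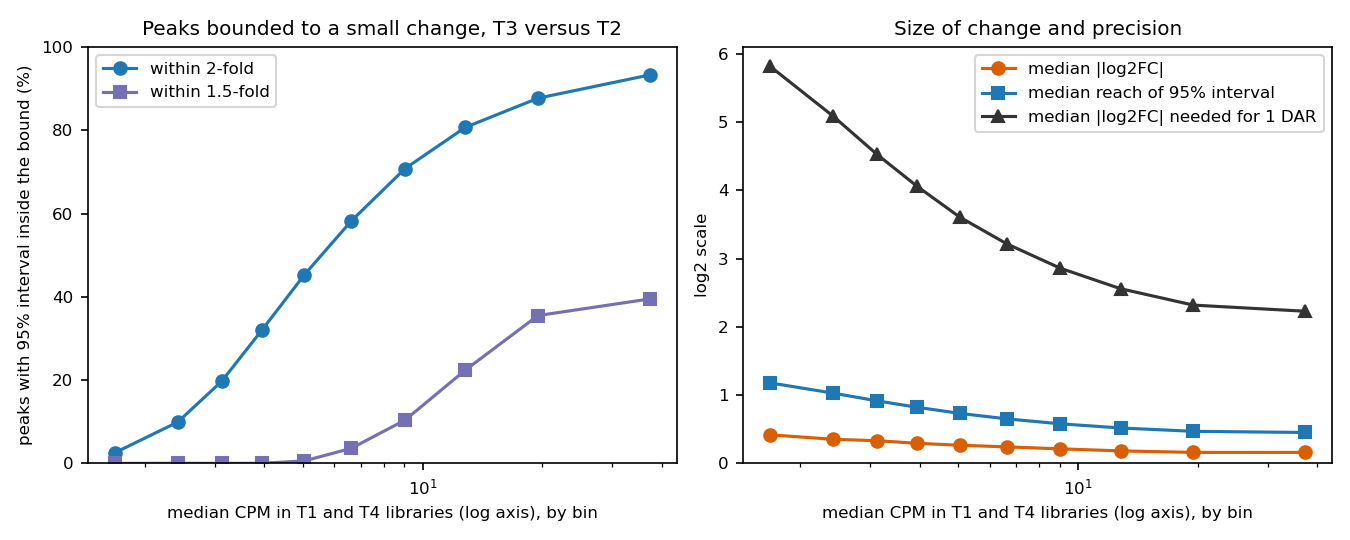
Bounds on the change from T2 to T3 by bin of accessibility, with the median CPM of each bin in the T1 and T4 libraries on a log axis. Left: the percent of peaks whose 95% interval of log2FC lies within 2-fold (circles) or 1.5-fold (squares), rising from 2.54% to 93.3% and from 0% to 39.5%. Right: on the log2 scale, the median size of the log2FC and the median reach of its 95% interval to either side. Also shown is the median log2FC that a peak passing alone would have needed, which falls from 5.82 to 2.23.

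The difference between the time points was of the size of the difference between replicates. The SD over peaks of the log2 ratio of 2 libraries, on log2(CPM + 1) values, was 0.415 to 0.526 in the 3 pairs within T2 and 0.521 to 0.672 in the 3 pairs within T3. In the 9 pairs of a T2 with a T3 library it was 0.449 to 0.656, with a mean of 0.549 between the means of 0.483 within T2 and 0.593 within T3. The 5 pairs that include T3 replicate 3 were the 5 highest of the 15. Peak by peak, the median difference of the group means was 0.20 and the median SD within a time point was 0.30, on the same scale. The difference of means exceeded the SD within groups for 32.3% of peaks and was more than 2 SD for 8.40%. Means of 3 libraries also differ by this much in a share of peaks without any real change. These shares are thus not counts of changed peaks. The SD was larger at T3 than at T2 for 63.9% of peaks, with a median of 0.31 against 0.23.

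**Figure D2:**
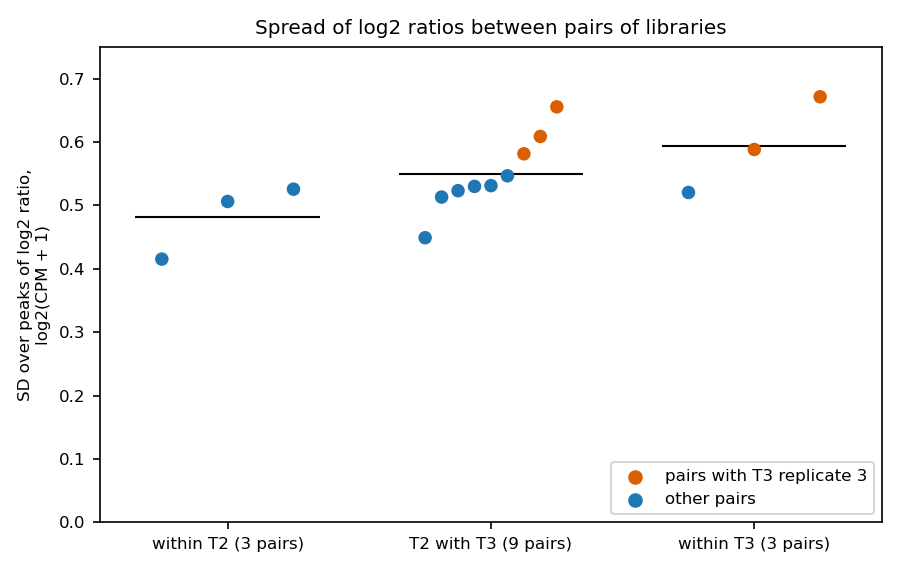
Spread between pairs of libraries. Each point is 1 pair, the vertical axis is the SD over 92741 peaks of the log2 ratio of log2(CPM + 1) values, and lines are means. Pairs of T2 with T3 (0.449 to 0.656) overlap the pairs within T2 and within T3, and pairs with T3 replicate 3 (orange) are the highest.

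Complete separation of the groups was found for 11136 peaks (12% of those tested), in which all 3 T3 libraries lay on the same side of all 3 T2 libraries in CPM. In 5759 of them (6.21%) the T3 libraries were the higher and in 5377 (5.8%) the lower. Such separation is the outcome with the smallest p, 0.1, in a two-sided exact permutation test of 3 against 3 libraries. Interchangeable libraries would thus be separated in a share of about 0.1 of peaks, near the share found. Of the separated peaks, 4259 had an unadjusted p under 0.05 and 1600 an estimate beyond 2-fold. By a set rule on counts, no peak opened from nothing or closed fully. There were 10 peaks with 3 counts or fewer in every T2 library and 15 in every T3 library, and none of them had 10 counts or more in every library of the other time point. Near this rule but outside it were peak52150 (4, 3 and 6 counts at T3) and peak98898 (1, 0 and 6), described below.

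A small tilt with accessibility ran through the estimates and rested on a single library. The median log2FC went from 0.14 in the lowest bin of peaks to −0.12 in the highest, and of the peaks with an unadjusted p under 0.05, 402 of 544 were higher at T3 in the lowest bin but 90 of 504 in the highest. Set against the mean of the T2 libraries on the log2(CPM + 1) scale, T3 replicate 3 had a median of 0.27 in the lowest and −0.38 in the highest bin. The other T3 libraries had −0.09 and 0.05 (replicate 1) and 0.06 and −0.07 (replicate 2). The T2 libraries, each against the other T2 libraries, lay between −0.12 and 0.10 in the lowest and between −0.06 and 0.09 in the highest bin. Without T3 replicate 3 the medians of the fitted log2FC were −0.06 and −0.01. Leaving out any other library kept them at 0.09 to 0.25 and −0.22 to −0.09. The same library had the fewest counts and the lowest share of them in the highest peaks, and the part of these in the tilt was not tested.

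**Figure D3:**
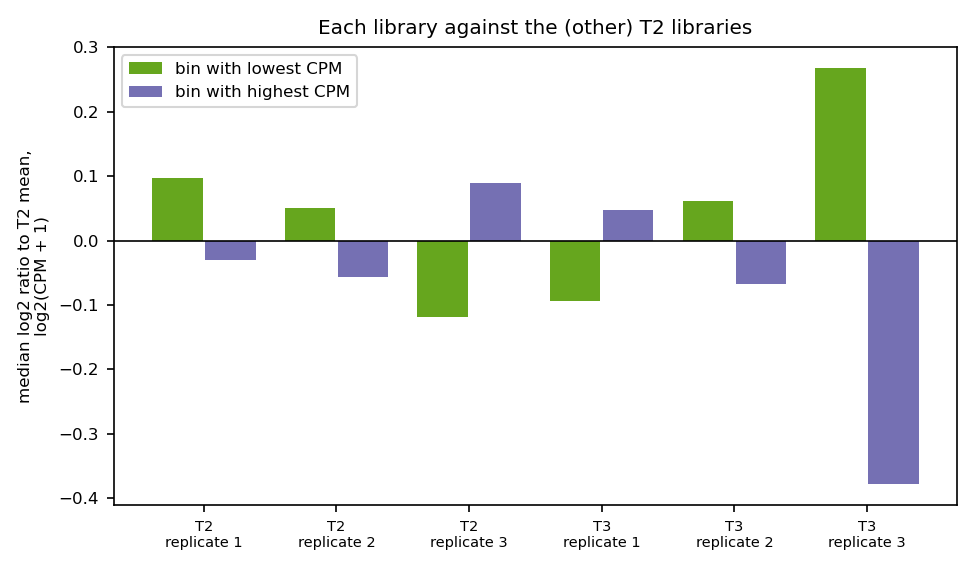
Each library against the mean of the T2 libraries (a T2 library against the other T2 libraries). Bars start at 0 and give the median log2 ratio of log2(CPM + 1) over the lowest and the highest bin of peaks by CPM in the T1 and T4 libraries. T3 replicate 3 reaches 0.27 and −0.38, and the other 5 libraries stay between −0.12 and 0.10.

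The peaks below were named by rule, as the 8 with the smallest p in each direction among those whose groups did not overlap. None was a DAR in the quasi-likelihood test, whose adjusted p is given below as that of edgeR, so their values describe the far end of the comparison. The choice by T2 and T3 values also favours T2 or T3 as the highest or lowest of the 4 time points. DESeq2 and edgeR's exact test each called every one of them, with adjusted p of 1.2e-06 and 2.44e-05 for peak65243. Among peaks with higher accessibility at T3, peak65243 came first. It had 0.407, 0.292 and 0.193 CPM in the T2 libraries and 3.63, 2.66 and 10.3 CPM in the T3 libraries. Its fitted log2FC was 4.15 (standard error 0.62, interval 2.77 to 5.53, edgeR adjusted p = 0.802). Every T3 library was above every T2 library, but the T3 libraries differed among themselves by more than 3-fold. At T1 this peak already had 0.88, 5.52 and 9.03 CPM, and at T4 it had 1.11, 3.2 and 0.644. By mean, T2 was the lowest of the 4 time points for this peak and T4 the next lowest.

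The next, peak86439, also had its lowest mean at T2 and its next lowest at T4. It had 0.498, 0.643 and 0.627 CPM at T2 and 5.57, 3.72 and 2.64 CPM at T3, with a log2FC of 2.76 (interval 1.81 to 3.72, edgeR adjusted p = 0.802). At T1 it had 7.60, 5.72 and 5.36 CPM, and at T4 3.40, 3.8 and 0.429. Likewise, peak43183 had 1.99, 3.51 and 3.33 CPM at T2, 14.3, 6.68 and 17.7 CPM at T3 and 24.5, 10.1 and 14.2 CPM at T1. For these 3 peaks, the T2 libraries were the lowest or among the lowest of the series, but the peaks were chosen for T2 lying below T3.

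Other peaks were higher at T3 than at both T1 and T2. The highest in CPM was peak48537, with 22.4, 17.8 and 24.1 CPM at T2 and 65.0, 44.9 and 41.9 CPM at T3, a log2FC of 1.24 with an interval of 0.75 to 1.73. Its T1 libraries had 17.4, 27.5 and 18.4 CPM and its T4 libraries 8.39, 13.6 and 28.8, all below the T3 libraries. In the same way, peak100146 had 6.42, 7.37 and 6.03 CPM at T2 and 20.9, 14.6 and 15.6 CPM at T3, against 4.24 to 9.80 CPM at T1 and 3.09 to 11.3 CPM at T4. The interval of its log2FC of 1.37 was 0.87 to 1.87. The pattern of peak60476 was alike, with 3.12, 3.04 and 3.47 CPM at T2 and 11.5, 9.26 and 8.17 CPM at T3 (log2FC 1.59). The T1 and T4 libraries of peak60476 lay between 1.11 and 6.52 CPM. In peak24185, the T2 libraries had 17.2, 8.01 and 10.1 CPM and the T3 libraries 52.0, 29.8 and 37.7 (log2FC 1.75), but T4 replicate 3 was higher than all of these at 79.4 CPM. The 8 peaks were completed by peak34928, with 2.17, 1.87 and 2.22 CPM at T2, 6.10, 7.59 and 6.01 CPM at T3 and a log2FC of 1.65. Its T1 libraries had 5.28, 3.95 and 4.08 CPM and its T4 libraries 2.93, 5.99 and 5.71. These lay above all T2 libraries and below all T3 libraries, so T2 was the lowest time point for this peak.

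Among peaks with lower accessibility at T3, peak52150 had the smallest p of all tested peaks. Its counts were 180, 189 and 118 in the T2 libraries and 4, 3 and 6 in the T3 libraries. In CPM this was 8.30 ± 2.68 against 0.375 ± 0.3003 (SD, n = 3 each). The fitted log2FC was −4.67 (standard error 0.52, interval −5.82 to −3.53, edgeR adjusted p = 0.298), a difference of 25.5-fold. When each library was omitted, its log2FC stayed between −5.35 and −4.23 and the edgeR adjusted p between 0.0906 and 0.711. The T1 libraries split, with 0.64 and 1.11 CPM in replicates 1 and 2 but 8.29 CPM in replicate 3, and the T4 libraries had 2.53, 1.2 and 0.343 CPM. A level near that of T2 was thus seen in 1 of the 6 libraries of T1 and T4.

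The second, peak72977, was lower at each later sampling but the last. It had 21.5, 14.9 and 18 CPM at T1, 11.2, 8.89 and 11.8 CPM at T2, 2.3, 2.73 and 2.16 CPM at T3 and 5.14, 5 and 4.59 CPM at T4. No 2 time points overlapped. From T2 to T3 its log2FC was −2.14 (interval −2.71 to −1.56, edgeR adjusted p = 0.347), or 4.40-fold lower, and the log2FC remained between −2.25 and −2.06 when single libraries were omitted.

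The remaining 6 were peaks of middle to high CPM with narrow replicates, about 2- to 3-fold lower at T3. In peak19562 the T2 libraries had 41.7, 36.8 and 46.4 CPM and the T3 libraries 20.6, 21.2 and 20.4 (log2FC −1.01, interval −1.39 to −0.62). Its T1 libraries were higher still, at 57.6 to 67.2 CPM, and T4 had 16.8, 17.4 and 39.1. In peak9731 the T2 libraries had 24.8, 22.9 and 27.8 CPM and the T3 libraries 11.5, 9.49 and 10.8 (log2FC −1.25), with 10.9, 13.8 and 15.8 CPM at T4. In peak75086, with 24.0, 23.2 and 26.8 CPM at T2 and 12.6, 10.6 and 11.7 at T3 (log2FC −1.08), T1 was near T2 at 19.7 to 29.3 CPM and T4 was lower at 12.0 to 18.4. These 3 peaks were higher at T1 and T2 than at T3 in every library.

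In another 3 peaks, T2 had the highest mean of the 4 time points, but the peaks were chosen for T2 lying above T3. In peak25226 the T2 libraries had 31.4, 26.1 and 22.7 CPM and the T3 libraries 13.8, 10.2 and 10.1 (log2FC −1.22), and all T1 and T4 libraries lay between 7.52 and 17.4. In peak14158 the T2 libraries had 17.4, 19.2 and 18.9 CPM and the T3 libraries 7.87, 8.43 and 8.89 (log2FC −1.14), with 7.28 to 13.2 CPM at T1 and T4. In peak83105, with 7.83, 7.89 and 9.02 CPM at T2 and 2.48, 2.81 and 3.00 at T3 (log2FC −1.59), the T1 libraries had 4.08 to 5.12 CPM and T4 had 4.03, 8.99 and 4.29. Each of these 8 peaks of lower accessibility, apart from peak52150, had an edgeR adjusted p of 0.347 to 0.802.

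**Figure D4:**
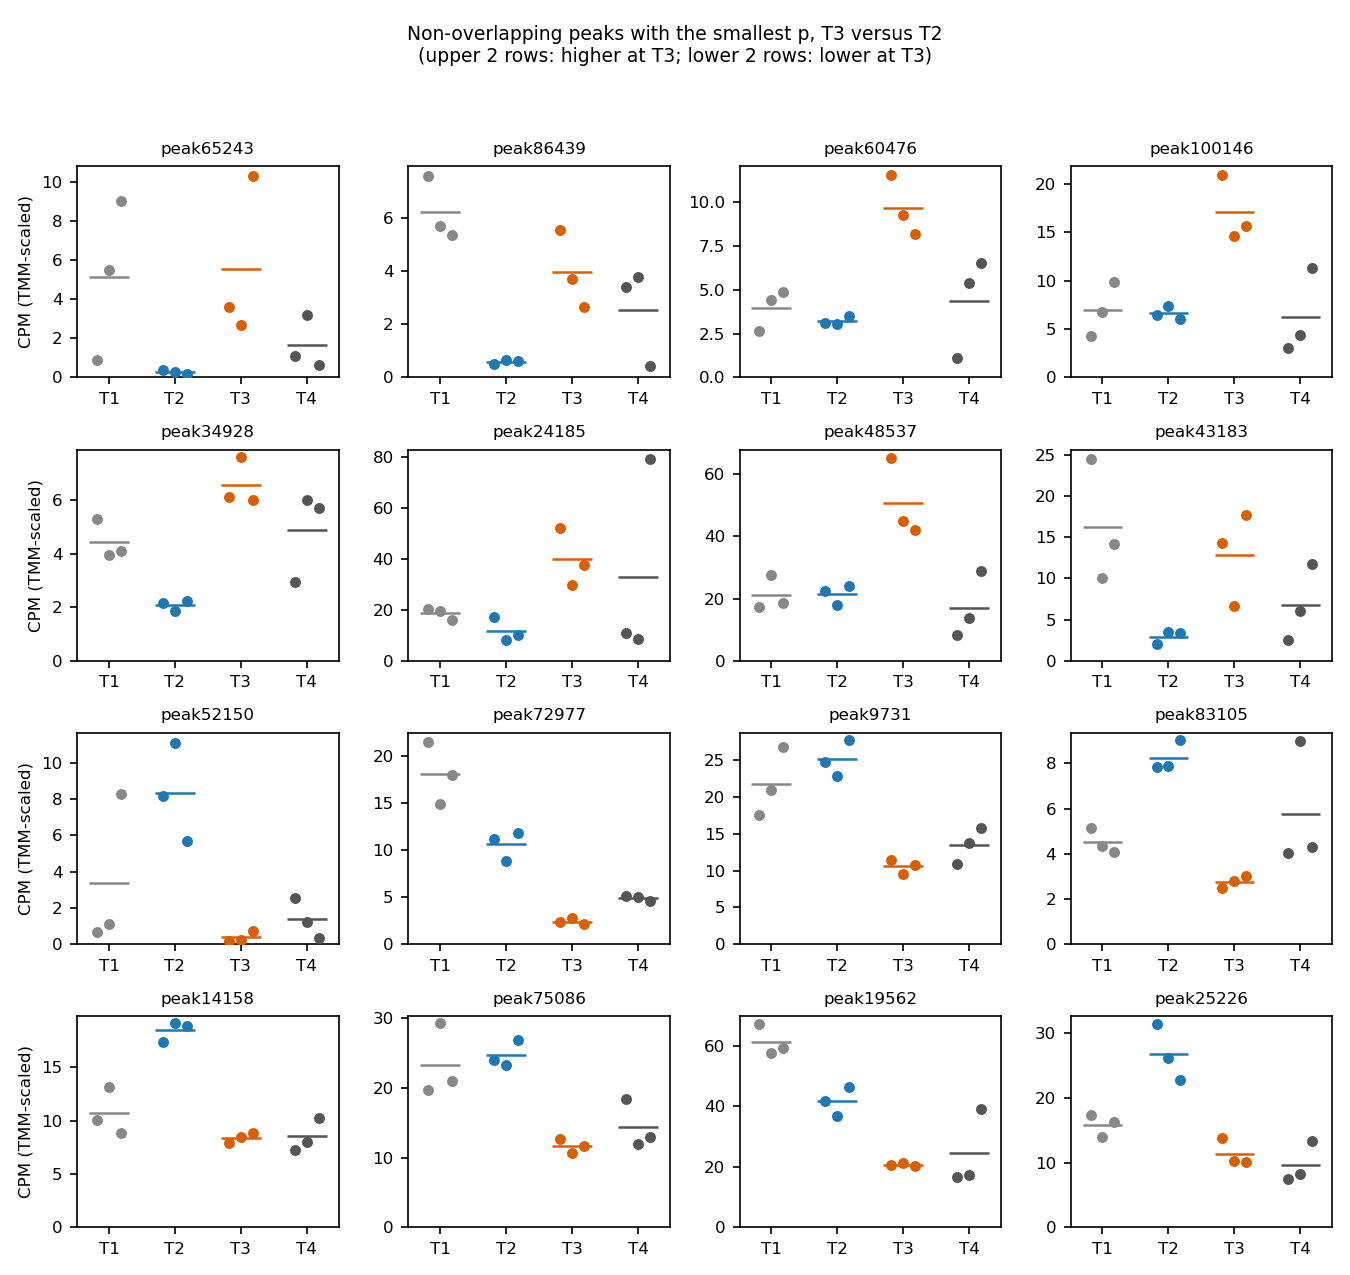
TMM-scaled CPM of 16 peaks in every library of T1, T2, T3 and T4, with the mean as a line. The upper 8 have the smallest p among peaks higher at T3 without overlap (peak65243 first, 0.193 to 0.407 CPM at T2 and 2.66 to 10.3 at T3) and the lower 8 among those lower at T3 (peak52150 first). T1 and T4 libraries, not used to choose the peaks, often lie across the gap between T2 and T3. T2 and T3 were scaled among their 6 libraries and T1 and T4 among all 12.

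Set against T2 and T3, the T1 and T4 means of these 16 peaks fell on either side. Of the 8 peaks that were higher at T3, 4 had T1 and T4 both nearer to T2, 2 had both nearer to T3, and 2 had T1 nearer to T3 and T4 nearer to T2. Of the 8 that were lower at T3, 4 had T1 nearer to T2 and T4 nearer to T3, 3 had both nearer to T3, and 1 had T1 nearer to T3 and T4 nearer to T2.

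In some of the most extreme estimates, replicates of a time point disagreed. The largest log2FC among separated peaks at an unadjusted p under 0.05 was that of peak15916, at 4.19. Its counts were 38, 35 and 23 at T2 but 1245, 396 and 24 at T3, so that T3 replicate 3, at 2.88 CPM, barely exceeded the T2 libraries at 1.11 to 2.05 CPM. The same split ran through T1, with 36, 544 and 888 counts, and T4, with 370, 14 and 551. This peak was thus high in some fish and low in others at T1, T3 and T4. After peak65243, described above, came peak61718, with 1, 1 and 7 counts at T2 and 39, 11 and 45 at T3 (log2FC 4.04, interval 2.01 to 6.08).

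On the other side, the lowest estimate was that of peak52150, described above, and the next, peak98898, had 90, 67 and 82 counts at T2 and 1, 0 and 6 at T3, with a log2FC of −4.40 (interval −6.28 to −2.53). It had 40, 98 and 0 counts at T1 and 0, 10 and 0 at T4, so the T1 libraries also differed among themselves. In peak102772, the difference rested on T2 replicate 3, which had 964 counts against 103 and 45 in the other T2 libraries and 29, 30 and 17 at T3 (log2FC −3.30). When single libraries were omitted, the log2FC of peak102772 ranged from −3.80 to −0.99.

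Leaving out a library produced 6 calls, each in a peak whose libraries disagreed. Without T3 replicate 3, peak15916 was a DAR (edgeR adjusted p = 0.0271), as was peak56733, which had 933, 801 and 894 counts at T2 and 145, 81 and 531 at T3. Without T3 replicate 1, peak74344 and peak74345 were DARs. They had 749 and 512 counts in that library and 0 in both other T3 libraries, against 241 to 347 counts at T2 in both peaks. Open and shut libraries were found at T1 as well, with 0, 599 and 6 counts in peak74344 and 4, 451 and 0 in peak74345. The others were peak99991 without T3 replicate 1, with 7, 365 and 115 counts at T3, and peak21204 without T2 replicate 3, with 21, 15 and 187 counts at T2.

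At the opposite end were the peaks for which a change was bounded most tightly. The narrowest interval belonged to peak77401, with 36.9 ± 0.324 CPM at T2 and 36.2 ± 0.638 CPM at T3 (SD, n = 3 each). Its log2FC was −0.03, with an interval of −0.38 to 0.32, which bounds its change to within 1.30-fold relative to TMM scaling. With mapped reads as library sizes its log2FC was −0.36. Its sign turned to 0.04 without TMM and to 0.10 with loess offsets. The T1 and T4 libraries of peak77401 ran from 18.4 to 52.4 CPM. The peak was chosen for its narrow interval in T2 and T3, so the ranges are not compared. The other 2 were peak93545, at 42.3, 41 and 39.6 CPM against 33.8, 34.7 and 33.4 (log2FC −0.27), and peak53978, at 29.4, 30.7 and 30.5 CPM against 36.5, 35.8 and 34.8 (log2FC 0.24). In both, the groups did not overlap while the interval held 0.

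Of the peaks called by other tools or without a library, 63 of 92741 tested were DARs in at least 2 of these fits. Of them 34 were higher at T3 (median log2FC 2.12) and 29 lower (median −1.40). All 63 had separated groups, as did 12% of all tested peaks. Voom and the replicate block called 0 peaks. No peak could thus be called in more than 3 of the 5 kinds of fit, and 1 was called in 3 (peak15916). The 10 with the smallest p in the quasi-likelihood test were all among the 16 peaks named above. For peak52150, the adjusted p was 1.02e-11 in DESeq2, 7e-12 in edgeR's exact test and 0.582 in limma's voom.

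Peaks chosen for their difference in some libraries did not steadily keep its direction in the rest. In each of 9 rounds, 1 T2 and 1 T3 library were left out, peaks with an unadjusted p under 0.05 were chosen in the other 4, and their log2 ratio was read in the pair left out. The chosen peaks of higher accessibility at T3 had a median log2FC of 0.86 to 1.59 in the libraries that chose them. In the pair left out their median ratio, on log2(CPM + 1) values, was −0.245 to 0.246, with 0.03 in the middle round and the same direction in 5 of the 9 rounds. The chosen peaks of lower accessibility had a median log2FC of −1.23 to −0.81, and −0.21 to 0.275 in the pair left out, with −0.09 in the middle round and the same direction in 5 rounds. Over the rounds, 33.1% to 71% of the first kind (median 52.8%) and 36.4% to 64% of the second (median 54.7%) kept their direction. Of all tested peaks, 49.0% to 51.0% lay on that side, but these were not matched to the chosen peaks in accessibility. An unadjusted p under 0.05 is no call, and many chosen peaks may hold no real change. The shares thus cannot show whether a real change failed to recur. The fitted log2FC and the ratio in the pair left out are on unlike scales, so only their direction compares directly. The rounds share libraries and were added after the data had been seen, so they are given without a test.

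The T1 and T4 libraries gave a separate reading of the same peaks. The 3014 peaks with higher accessibility at T3 had a median log2FC of 0.99 from T2 to T3 and of 0.14 from T1 to T4, where the median over all tested peaks was 0.06. The 2720 peaks with lower accessibility had −0.76 from T2 to T3 and 0.02 from T1 to T4. In the contrast of T4 with T1, 143 of the first set had an unadjusted p under 0.05 in the direction of T4 (4.74%) and 148 in that of T1. In all tested peaks these shares were 8.4% toward T4 and 3.78% toward T1. Of the second set, 362 (13.3%) lay toward T4 and 124 (4.56%) toward T1. The 2 sets differed in accessibility, as the bins above show, so all tested peaks are not a like background for either. The part of accessibility in these shares was not tested. These shares moved with single T1 and T4 libraries. The share of the first set toward T4 was 1.39% without T1 replicate 3, against 3.31% of all tested peaks, but 11.9% without T1 replicate 1, against 8.94%. It was also moved by over 1.5 times without T1 replicate 2 (1.82%), T4 replicate 2 (2.09%) and T4 replicate 3 (11.3%). The share of all tested peaks moved as well, to 4.21%, 5.46% and 15.9%. The share of the second set toward T4 was lowest without T1 replicate 3 (6.8%, against 3.31% of all tested peaks). It was 8.49% without T4 replicate 2, against 5.46%. Its highest value was 17.5% without T4 replicate 3, against 15.9%. Over all tested peaks the log2FC of the 2 contrasts had a Pearson's r of 0.007 and a Spearman's rho of 0.002, across peaks that share libraries and are not independent. Both medians moved with the T3 library left out of the choice, from −0.16 without replicate 3 to 0.76 without replicate 1 for the first set, and from −0.24 without replicate 1 to 0.61 without replicate 3 for the second.

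Between T2 and T3, single T1 and T4 libraries took different places. On the log2(CPM + 1) scale, measured from the midpoint of the T2 and T3 means, the peaks with higher accessibility at T3 were at −0.355 in T2 and 0.355 in T3. In T4 replicate 2, the shallowest library of the series, they were at 0.38, beyond the T3 mean, while in T4 replicate 1 they were at −0.19. The peaks with lower accessibility were at −0.35 in T4 replicate 2 and −0.24 in T4 replicate 1. The T1 libraries were at 0.237, −0.027 and −0.067 for the higher and −0.101, −0.035 and −0.09 for the lower peaks. T4 replicate 2 also had the lowest share of counts in the highest 10% of peaks among the 12 libraries, at 28.8%. This share was 37.7% in T3 replicate 3, 38.5% in T4 replicate 1 and 39.75% in T1 replicate 1. Its part in these places was not tested. With peaks chosen without T3 replicate 3, T4 replicate 2 turned to the side of T2, at −0.27 for the 2941 higher and 0.52 for the 4075 lower peaks. T4 replicate 1 was then also on the side of T2, at −0.492 and 0.515, and T4 replicate 3 was at 0.002 and 0.003. T3 replicate 3, which then had no part in the choice, also lay on the side of T2, at −0.11 and 0.19.

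Peaks with consecutive numbers had weakly correlated estimates. Across pairs of tested peaks, the Pearson's r of the log2FC was 0.196 for neighbours in number, 0.127 at a distance of 2, 0.065 at 5, 0.037 at 10 and −0.002 at 100. Whether numbers follow position in the genome is not given in the sources used here. Most peaks at an unadjusted p under 0.05 stood alone, with 2463 single peaks higher and 2262 lower at T3, and runs of 4 or more in the same direction were rare. In the higher direction there were 11 runs of 4 peaks, 1 of 5 and 1 of 10, and in the lower direction 3 runs of 4.

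The longest runs, of 10 and of 5 peaks, were both higher at T3. The first, from peak47744 to peak47753, held 10 peaks with a median log2FC of 1.25. Their summed CPM was 74.3, 45.3 and 40.8 at T2 and 49.5, 164 and 172 at T3, a ratio of means of 2.40. The T3 library of replicate 1 lay within the T2 range, while the others were more than double any T2 library. The same run had 227, 72.5 and 44.6 CPM at T1 and 101, 780 and 42.1 CPM at T4, so that the sum also differed between libraries of the same time point. Its member with the highest CPM, peak47750 (log2FC 1.24), had 30.2, 19.5 and 16.4 CPM at T2 and 18.8, 61.1 and 76.8 CPM at T3, and 279 CPM in T4 replicate 2. The largest log2FC in the run was that of peak47746, at 2.04.

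The run from peak60475 to peak60479 held 5 peaks, with peak60476 among them, and had a median log2FC of 1.59. Its summed CPM was 21.1, 24.5 and 27.9 at T2 and 91.1, 47.5 and 40.8 at T3, without overlap, and the ratio of means was 2.44 (1.80 to 2.83 with each T3 library left out). The T1 libraries, at 32.9 to 52.3 CPM, lay across the lower T3 libraries and above all of T2. The T4 libraries, at 12.8, 22.4 and 50.3 CPM, ran from below all of T2 to above it. Of the 14 runs of 4 peaks, that from peak61945 to peak61948, also higher at T3, had the smallest median p, and it had a median log2FC of 1.70. It had 5.90, 14.9 and 14.9 CPM at T2 and 50.7, 21.3 and 43.4 CPM at T3, a ratio of 3.23 (2.72 to 3.95 with each T3 library left out). At T1 this run had a mean of 36.6 CPM, close to the 38.5 CPM at T3, and at T4 it had 15.2, 19.2 and 52.3 CPM. T2 had the lowest mean, but the run was chosen for T2 lying below T3.

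**Figure D5:**
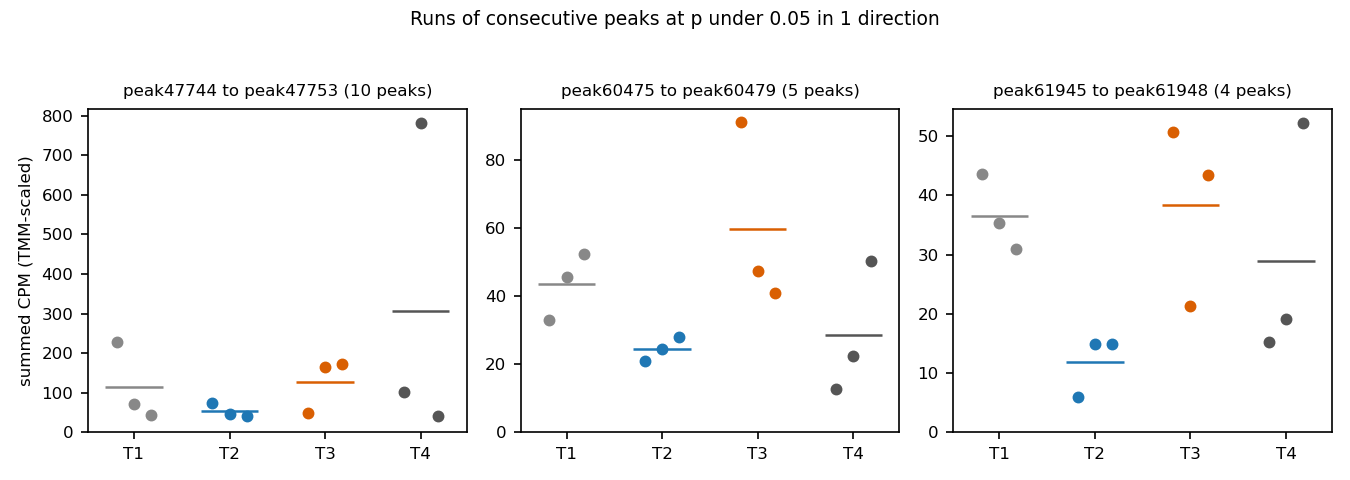
Summed TMM-scaled CPM of 3 runs of consecutively numbered peaks at an unadjusted p under 0.05 in the same direction (the longest, the next and the run of 4 with the smallest median p), in every library of T1, T2, T3 and T4, with the mean as a line. In the run of 10 peaks T3 replicate 1 (49.5 CPM) lies among the T2 libraries and T4 replicate 2 reaches 780 CPM, and in the runs of 5 and 4 peaks all T3 libraries lie above all T2 libraries.

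Peaks that differed between T1 and T2 were also followed to T3. They were 89 DARs of the quasi-likelihood test, 0.0964% of 92360 peaks. The study, with edgeR at the same thresholds but no named test function, reported many more DARs between T1 and T2. The 40 DARs that were higher at T2 than at T1 had a median log2FC of 1.86 from T1 to T2, −0.69 from T2 to T3 and 1.15 from T1 to T3. The 49 DARs that were lower at T2, 48 of which were tested here, had −2.00, 0.84 and −1.17. These peaks were chosen for extreme values in the T2 libraries, which both contrasts share, so the values stand side by side and no return toward T1 is read from them.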

How the data were processed

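Liver ATAC-seq was measured in 12 libraries, and the 3 T2 and 3 T3 libraries were compared. The authors mapped reads to ICSASG_v2 with Bowtie2 2.3.5.1, removed duplicate, multi-mapped and mitochondrial reads and ran MACS2. Peaks of 2 or more replicates per time point were merged, and they counted reads per peak with HTSeq 0.11.1. The deposited counts are whole numbers without normalization. The deposited log2 values, log2(CPM + 1), were not used. Whether positions were shifted for Tn5, or mates counted once, is not given in the sources used here.

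The counts were scaled by TMM and fitted with edgeR 4.0.16 in R 4.3.3 (estimateDisp, glmQLFit, glmQLFTest). Standard errors were the size of the log2FC over the square root of F, so intervals restate the test. The depth was 7476523 to 23759764 counts per library, and no shares of single libraries carry an interval. Named peaks were the 8 of smallest p per direction without overlap, the 3 largest and 3 lowest log2FC among such peaks, the 3 narrowest intervals, up to 10 peaks called by at least 2 alternatives, and the 3 longest runs (ties by the smallest median p). Alternatives were DESeq2 1.42.0, the exact test, limma 3.58.1 voom with quality weights, other scalings and filters, a replicate block, all 12 libraries, and leaving out each library. The uniquely mapped reads that the study lists served as 1 alternative of library size. Its list gives T2 replicate 2 the code and time point of T3 replicate 2, and that entry was assigned by its description, so results with mapped reads rest on this reading. The tilt with accessibility, the rounds with a pair left out, the midpoints and the summed runs were added after seeing the data. Code was tested on simulated data. Peaks, rules and lists were chosen with earlier results of these data known.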

Additional observations from a re-analysis of the deposited data

How the results depend on the processing

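The count of 0 DARs held with voom, without TMM, with RLE size factors, with loess offsets (smallest adjusted p 0.0571), without a filter, with at least 10 counts in all 6 libraries, with all 12 libraries and with the share of counts in the highest 10% of peaks as a covariate (0.0589). It was 87 with DESeq2, 65 with the exact test, 119 with mapped reads as library sizes and 0 to 3 when each library was left out. Mapped reads moved the median log2FC to −0.33 and its median size to 0.381, left 547 peaks with an interval within 2-fold and put 10.8% of the peaks at an unadjusted p under 0.05 on the side of T3. Of its 119 DARs, 35 were higher and 84 lower at T3. These were called against a log2FC of 0 and not against that shift, so the shift itself favours lower calls. Without TMM the median log2FC was 0.069 and 65.5% lay on the side of T3, and with voom the median log2FC was −0.0091. The bound of 1.5-fold held 10379 peaks. Peaks at an unadjusted p under 0.05 numbered 2890 in the fit of all 12 libraries.

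With each library left out, the median log2FC ranged from −0.0056 to 0.0187, the peaks at an unadjusted p under 0.05 from 3511 (without T2 replicate 2) to 7463, the percent of them higher at T3 from 41.9 (without T3 replicate 3) to 60.2, and the peaks bounded within 2-fold from 35813 to 43126. The median log2FC from T1 to T4 ranged from −0.164 to 0.756 for peaks higher and from −0.245 to 0.609 for peaks lower at T3. Among the named peaks the sign turned for peak77401 (0.035 without TMM, 0.097 with loess offsets) and peak53978 (−0.090 with mapped reads). The causes were not tested.

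Fish were killed when sampled, so a shared replicate number does not stand for the same fish. Deviations from the group means of same-numbered libraries had correlations of −0.09, −0.13 and −0.11, and no library correlated best with its own number. Deviations within a group sum to 0, so these correlations are tied to each other. A replicate block gave 0 DARs, 3953 peaks at an unadjusted p under 0.05 and a median log2FC of −0.0092.

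In 90% of peaks an estimate under 4.62-fold could not have passed the quasi-likelihood test alone, though peaks passing together can have smaller estimates. DESeq2 and the exact test called smaller ones.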
